A study of Mus musculus with 27 samples.

Results

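Of the 54532 genes counted in mouse splenic B cells, 10 were chosen by gene symbol because they encode aldehyde dehydrogenases, the enzyme family through which disulfiram (DSF) acts as a drug against alcohol dependence: Aldh2, Aldh1b1, Aldh3a2, Aldh3b1, Aldh4a1, Aldh6a1, Aldh7a1, Aldh9a1, Aldh16a1 and Aldh18a1. All 10 were found under these names and all 10 passed the filter on low counts in every comparison. The table holds 21 genes of the family, and the remaining 11 had few or no counts in most libraries.

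Aldehyde dehydrogenases use NAD+ or NADP+ to oxidise reactive aldehydes to carboxylic acids, or run as one step of an amino acid pathway. Metabolites of DSF modify the catalytic cysteine of the mitochondrial enzyme encoded by Aldh2, so that acetaldehyde from alcohol builds up. That is an effect on enzyme activity, whereas the libraries measured mRNA.

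Every library came from B cells of the spleen of wild-type (genotype WT) C57BL6 mice, taken by negative selection, cultured for 3 h and sequenced from poly-A RNA. In experiment 1, 5 groups had 4 libraries each: unstimulated cells without inhibitor, cells given lipopolysaccharide (LPS) with vehicle, cells given LPS with DSF, cells given interleukin-4 and an antibody to CD40 (IL-4+anti-CD40) with vehicle, and cells given IL-4+anti-CD40 with DSF. DSF was used at 1 µM. Cells without an inhibitor received the vehicle, DMSO. Experiment 2 had 1 library each of these 5 conditions and 1 each of cells given ibrutinib, an inhibitor of Bruton's tyrosine kinase, under LPS or under IL-4+anti-CD40. The labels do not say whether the 4 libraries of a group came from separate mice, nor the age of the animals, so p-values measure the spread between these libraries.

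Libraries of experiment 1 held 17804851 to 23632992 counts and those of experiment 2 held 16049295 to 24619776. The 4 unstimulated libraries of experiment 1 fell into pairs: within libraries 1 and 2, 2.90% of genes were at least 2-fold apart, within libraries 3 and 4 it was 3.59%, and across the pairs 15.6% to 16.1%, against 3.29% to 8.85% between libraries of the other 4 groups. Results set against unstimulated cells were therefore also computed with each pair alone. The IL-4+anti-CD40 libraries had a smaller split by the same numbers, with 4.06% within 1 and 2, 4.52% within 3 and 4, and 5.97% to 8.85% across. Their pairs were not used alone. The summed level of 10 B cell markers was 1493 to 3878 FPKM (fragments per kilobase scaled by a size per library, a level per gene length), none of them at 0 counts in any group, and that of 7 T cell markers was 6.17 to 15.3 FPKM in experiment 1. Marker sums also differed between unstimulated libraries 1 and 2 and libraries 3 and 4. B cell markers were at 2700 and 2649 against 3878 and 3822 FPKM, and myeloid ones at 327 and 318 against 427 and 439. Neutrophil markers were at 56.1 and 54.1 against 20.7 and 25.1, and erythroid ones at 3.45 and 2.51 against 15.4 and 17.1. Plasma cell markers overlapped. The part of these lists in the members' split was not tested. Strand setting of the counting was not given in the sources used here, and 2 members lie over well-counted genes of the opposite strand: Aldh7a1 over Phax, with 404 to 927 counts, and Aldh16a1 over Pih1d1, with 454 to 780 counts, so reads of these gene pairs may not be told apart.

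The members spanned a wide range of levels. Over the 20 libraries of experiment 1, Aldh2 had the highest mean at 30.9 FPKM, followed by Aldh18a1 at 28.4 FPKM, Aldh9a1 at 13.2 FPKM and Aldh16a1 at 9.43 FPKM. Which of the first 2 led depended on the group: Aldh2 was the highest member in all 4 unstimulated libraries and all 4 given LPS with DSF, and Aldh18a1 in 3 of 4 given LPS and in all 8 given IL-4+anti-CD40 with or without DSF. Aldh3a2 at 6.85 FPKM, Aldh3b1 at 5.82 FPKM and Aldh1b1 at 3.16 FPKM formed a middle range. The enzymes of amino acid breakdown were lowest, with Aldh7a1 at 1.30 FPKM, Aldh4a1 at 0.933 FPKM and Aldh6a1 at 0.813 FPKM. Between groups, the highest mean was 4.42 times the lowest for Aldh4a1, 3.51 times for Aldh3b1, 3.32 times for Aldh18a1 and 3.02 times for Aldh6a1. Unstimulated cells had the highest mean of Aldh2, Aldh3a2, Aldh3b1, Aldh4a1, Aldh6a1, Aldh7a1 and Aldh9a1, and all but Aldh7a1 of these did not overlap the next group. How many of all genes were separated in this way was not computed, so it is not shown to be particular to the family. Adjacent groups further down the order mostly overlapped, and for Aldh1b1 and Aldh7a1 every neighbour did. For Aldh18a1 the reverse was seen, since LPS and LPS with DSF were the neighbours that overlapped and the others lay apart. The plot of levels by library shows each member in its own panel.

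**Figure D1:**
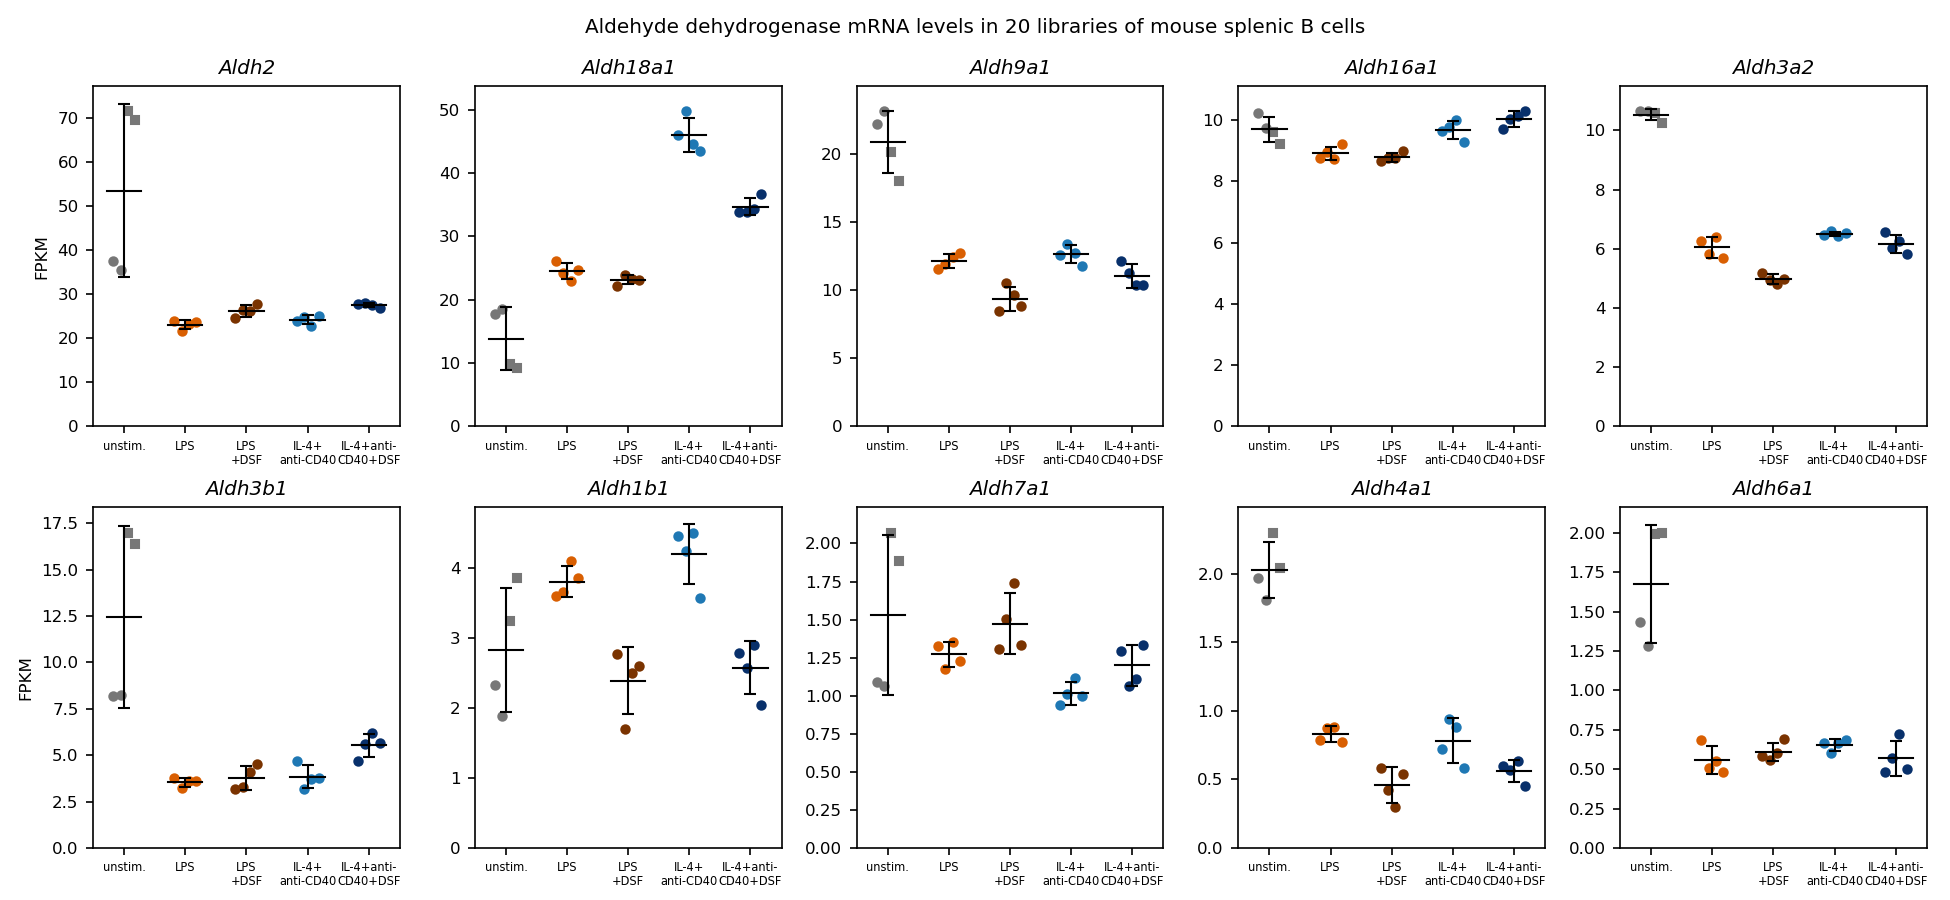
FPKM of the 10 aldehyde dehydrogenases (vertical axes, each from 0) in the 20 libraries of experiment 1 by group, with points for libraries and bars for the mean ± SD of 4; squares are unstimulated libraries 3 and 4. Aldh2 stood at 35.4 to 71.6 FPKM in unstimulated cells and at 21.7 to 27.9 FPKM in the 16 stimulated libraries, whereas Aldh18a1 was highest under IL-4+anti-CD40, at 43.5 to 49.7 FPKM.

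Upstream sequence was available for 8 of the 10 members, all but Aldh2 and Aldh7a1, from RefSeq on GRCm38.p6. The 250 bases before the RefSeq start site are shown for Aldh18a1, the member with the largest increase on stimulation, for Aldh3a2, which fell on stimulation and holds the same motif, and for Aldh1b1, which DSF lowered under both stimuli. Capitals mark the E-box CACGTG, the site bound by MYC and related factors. Each is printed 5′ to 3′ on the strand of its gene: Aldh18a1 from chr19:40588464-40588713 (minus strand), Aldh3a2 from chr11:61267187-61267436 (minus strand) and Aldh1b1 from chr4:45798772-45799021 (plus strand). The Aldh3a2 stretch and its E-box lie inside the gene as counted (chr11:61223417-61267464), whose start is further upstream than the RefSeq one.
Aldh18a1: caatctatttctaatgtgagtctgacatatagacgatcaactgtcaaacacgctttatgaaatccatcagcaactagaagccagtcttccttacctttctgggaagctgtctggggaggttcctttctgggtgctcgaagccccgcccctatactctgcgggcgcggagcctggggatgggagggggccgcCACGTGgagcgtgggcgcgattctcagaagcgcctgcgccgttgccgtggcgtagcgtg
Aldh3a2: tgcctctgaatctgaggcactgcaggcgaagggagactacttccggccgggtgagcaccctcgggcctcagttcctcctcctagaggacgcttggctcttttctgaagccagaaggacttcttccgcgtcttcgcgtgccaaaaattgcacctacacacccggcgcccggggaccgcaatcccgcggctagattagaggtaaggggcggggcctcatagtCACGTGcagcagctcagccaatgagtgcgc
Aldh1b1: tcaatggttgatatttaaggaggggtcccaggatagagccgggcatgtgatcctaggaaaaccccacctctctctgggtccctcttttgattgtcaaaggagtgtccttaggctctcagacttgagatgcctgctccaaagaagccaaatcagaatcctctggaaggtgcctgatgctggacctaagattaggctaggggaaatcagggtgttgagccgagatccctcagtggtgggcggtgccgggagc
Motifs were sought on both strands of windows of 300 bases, from 250 before to 50 after each start. CACGTG stood in the windows of Aldh18a1 and Aldh3a2 and in 7.24% of 27025 promoters. The letters TGACNNNGC, the core of the antioxidant response element, were found in Aldh9a1 and in 12.5% of all promoters. TGATGNAA, an amino acid response element held by 4.06% of promoters, and GAANNTTC, a heat shock element core held by 7.95%, were not among the letters of these 8 members' windows. None of these matches overlapped another, and a match describes the letters only.

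The first question was how the members differed between resting and activated B cells. Stimulation lowered most of them and raised Aldh18a1. Under LPS, 6 of 10 members fell and 1 rose at an adjusted p under 0.05 (edgeR's quasi-likelihood test, Benjamini-Hochberg adjustment over all genes tested), beside 33.3% of all tested genes that fell and 29.6% that rose. Under IL-4+anti-CD40, 6 fell and 2 rose, beside 32.1% of genes lower and 30.4% higher. The median log2 difference of the members was −0.78 under LPS and −0.69 under IL-4+anti-CD40, against −0.05 and −0.04 for all genes. The 6 myeloid markers moved the same way as the members that fell: their summed level was 318 to 439 FPKM in unstimulated libraries, 71.4 to 81.8 under LPS and 94.2 to 113 under IL-4+anti-CD40, 5 and 4 of the 6 fell, and none was at 0 counts. Other lists were lower too: B cell markers at 1901 to 1941 under LPS against 2649 to 3878 FPKM, 5 of 10 falling under each stimulus, plasma cell markers at 81.0 to 86.4 under LPS and 119 to 125 under IL-4+anti-CD40 against 137 to 160 FPKM, NK cell markers at 0.133 to 0.421 and 0.384 to 0.738 against 1.80 to 2.05 FPKM, with Ncr1 at 0 counts under LPS, and T cell markers at 7.44 to 8.67 under IL-4+anti-CD40 against 11.6 to 15.3 FPKM. Dendritic cell markers were higher in sum, at 8.15 to 8.69 and 10.4 to 11.8 against 4.56 to 5.90 FPKM. Of these 5 markers, however, only 1 rose under each stimulus, while 2 fell under LPS and 4 under IL-4+anti-CD40. Neutrophil markers stood at 16.3 to 18.3 under LPS and 14.9 to 19.6 under IL-4+anti-CD40 against 20.7 to 56.1 FPKM. Erythroid markers stood at 1.55 to 3.03 and 1.41 to 1.89 against 2.51 to 17.1 FPKM. The part of these lists in the result was not tested. In bulk RNA, fewer cells of a type and less RNA per cell cannot be told apart.

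Aldh2, the mitochondrial acetaldehyde dehydrogenase (chr5:121566027-121593824 on mm10, minus strand; positions of the members are on this build throughout), differed between the unstimulated pairs. Its level was 37.6, 35.4, 71.6 and 69.5 FPKM in unstimulated libraries 1 to 4, then 23.96, 21.7, 23.2 and 23.6 FPKM under LPS and 23.97, 24.9, 22.8 and 25.1 FPKM under IL-4+anti-CD40. All 8 stimulated libraries lay below all 4 unstimulated ones. Aldh2 fell by 1.20 on the log2 scale under LPS (SE 0.24, adjusted p = 0.00242, edgeR) and by 1.13 under IL-4+anti-CD40 (SE 0.24, adjusted p = 0.00303). Against libraries 1 and 2 alone these differences were −0.63 and −0.59, and against libraries 3 and 4 alone −1.58 and −1.52, each with an adjusted p under 0.05.

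Aldh1b1, its closest relative in mitochondria (chr4:45799022-45804604, plus strand), did not share that course. It measured 2.33, 1.89, 3.25 and 3.85 FPKM in unstimulated libraries, 3.60, 3.66, 4.11 and 3.86 FPKM under LPS and 4.46, 4.25, 4.51 and 3.58 FPKM under IL-4+anti-CD40. The groups overlapped under both stimuli. The log2 difference was 0.44 under LPS (SE 0.22, adjusted p = 0.113, edgeR) and 0.59 under IL-4+anti-CD40 (SE 0.23, adjusted p = 0.0495, edgeR). The second call ended when any of the 4 IL-4+anti-CD40 libraries or unstimulated library 1 or 2 was left out (adjusted p 0.0512 to 0.109) and the LPS difference passed without unstimulated library 4, at 0.64 (adjusted p = 0.0201, edgeR). Both depended on the unstimulated pair. Against libraries 1 and 2 alone Aldh1b1 was at 0.87 under LPS (adjusted p = 5.49e-06) and 1.00 under IL-4+anti-CD40 (adjusted p = 0.000621, edgeR), and against libraries 3 and 4 alone at 0.13 (adjusted p = 0.364) and 0.27 (adjusted p = 0.130, edgeR).

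The fatty aldehyde dehydrogenases both fell. Aldh3a2, which oxidises long-chain fatty aldehydes including the one released from sphingosine-1-phosphate (chr11:61223417-61267464, minus strand), was alike in the 4 unstimulated libraries, at 10.6, 10.7, 10.6 and 10.2 FPKM. It stood at 6.26, 5.83, 6.40 and 5.68 FPKM under LPS and at 6.48, 6.60, 6.45 and 6.52 FPKM under IL-4+anti-CD40. Neither stimulated group overlapped the unstimulated one. Aldh3a2 fell by 0.79 under LPS (log2, SE 0.055, adjusted p = 5.95e-06, edgeR) and by 0.67 under IL-4+anti-CD40 (SE 0.058, adjusted p = 1.85e-05, edgeR). Against either unstimulated pair the LPS value was within −0.79 to −0.76.

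Aldh3b1, a membrane-associated relative acting on medium- and long-chain aldehydes (chr19:3913493-3929761, minus strand), had levels of 8.17, 8.25, 17.0 and 16.4 FPKM in unstimulated libraries and was split between the pairs like Aldh2. Under LPS the libraries read 3.76, 3.21, 3.60 and 3.59 FPKM, and under IL-4+anti-CD40 4.67, 3.20, 3.69 and 3.78 FPKM. Every stimulated library was below every unstimulated one. Its log2 differences of −1.80 (SE 0.28, adjusted p = 0.000504, edgeR) and −1.68 (SE 0.29, adjusted p = 0.000827) were −1.19 and −1.09 against the first unstimulated pair and −2.21 and −2.10 against the second.

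The proline enzymes moved in opposite directions. Aldh18a1 encodes the enzyme that turns glutamate into the precursor of proline and ornithine (chr19:40550257-40588463, minus strand), and Aldh4a1 the enzyme that returns that same intermediate to glutamate (chr4:139622866-139649690, plus strand). Aldh18a1 stood at 17.7, 18.5, 9.88 and 9.20 FPKM in unstimulated libraries, 26.1, 24.2, 23.0 and 24.6 FPKM under LPS, and 46.0, 49.7, 44.6 and 43.5 FPKM under IL-4+anti-CD40. The 3 groups did not overlap. It rose 1.79-fold under LPS (log2 0.84, SE 0.22, adjusted p = 0.00877, edgeR) and 3.38-fold under IL-4+anti-CD40 (log2 1.76, SE 0.22, adjusted p = 0.000153, edgeR). Here too the unstimulated pair set the size, with log2 values of 0.46 and 1.35 against libraries 1 and 2 and of 1.39 and 2.29 against libraries 3 and 4.

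Aldh4a1 was low throughout, with 1.97, 1.81, 2.30 and 2.05 FPKM in unstimulated libraries, 0.786, 0.875, 0.882 and 0.770 FPKM under LPS and 0.725, 0.941, 0.885 and 0.584 FPKM under IL-4+anti-CD40. No stimulated library reached the lowest unstimulated one. It fell by 1.28 under LPS (log2, SE 0.12, adjusted p = 3.07e-05, edgeR) and by 1.35 under IL-4+anti-CD40 (SE 0.18, adjusted p = 0.000182, edgeR), between −1.16 and −1.44 whichever unstimulated pair was used.

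Aldh6a1, the methylmalonate semialdehyde dehydrogenase of valine breakdown (chr12:84430717-84451004, minus strand), measured 1.43, 1.28, 1.99 and 2.00 FPKM in unstimulated libraries. The 8 stimulated libraries lay between 0.483 and 0.684 FPKM, clear of that range. Its fall was 2.99-fold under LPS (log2 −1.58, SE 0.20, adjusted p = 0.000171, edgeR) and 2.53-fold under IL-4+anti-CD40 (log2 −1.34, SE 0.19, adjusted p = 0.000255, edgeR), and with the first and second unstimulated pair it was −1.26 and −1.81 under LPS and −1.05 and −1.59 under IL-4+anti-CD40. Aldh7a1, the aminoadipic semialdehyde dehydrogenase of lysine breakdown, differed between the unstimulated pairs (1.09 and 1.06 against 2.07 and 1.89 FPKM). Its log2 difference was −0.26 under LPS (SE 0.24, adjusted p = 0.376, edgeR) and −0.57 under IL-4+anti-CD40 (SE 0.25, adjusted p = 0.0695, edgeR). Under LPS that value was 0.26 against unstimulated libraries 1 and 2 and −0.61 (adjusted p = 0.000154, edgeR) against libraries 3 and 4. Under IL-4+anti-CD40 it passed without unstimulated library 1, at −0.71 (adjusted p = 0.0285), or 2, at −0.72 (adjusted p = 0.0240, edgeR), but it was −0.08 (adjusted p = 0.651) against libraries 1 and 2 alone and −0.94 (adjusted p = 0.000223, edgeR) against libraries 3 and 4 alone.

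Aldh9a1, whose enzyme serves carnitine synthesis and the oxidation of aminobutyraldehyde to GABA (chr1:167349991-167368532, plus strand), fell from 22.2, 23.1, 20.1 and 18.02 FPKM to 11.6, 11.9, 12.4 and 12.7 FPKM under LPS and to 12.6, 13.4, 12.7 and 11.8 FPKM under IL-4+anti-CD40. The unstimulated libraries stood apart from both groups. These changes were −0.76 (SE 0.075, adjusted p = 3.91e-05) and −0.70 on the log2 scale (SE 0.084, adjusted p = 0.000114, edgeR), and by pair −0.87 and −0.62 under LPS and −0.84 and −0.57 under IL-4+anti-CD40. Aldh16a1, a family member thought to lack catalytic activity in mammals (chr7:45140684-45154584, minus strand), varied least, with group means from 8.79 to 10.04 FPKM and a highest mean 1.14 times the lowest. It missed the threshold under LPS (log2 −0.11, SE 0.049, adjusted p = 0.0889, edgeR), though not against unstimulated libraries 1 and 2 alone (−0.14, adjusted p = 0.0322, edgeR), and under IL-4+anti-CD40 (0.02, 95% interval −0.12 to 0.16).

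**Figure D2:**
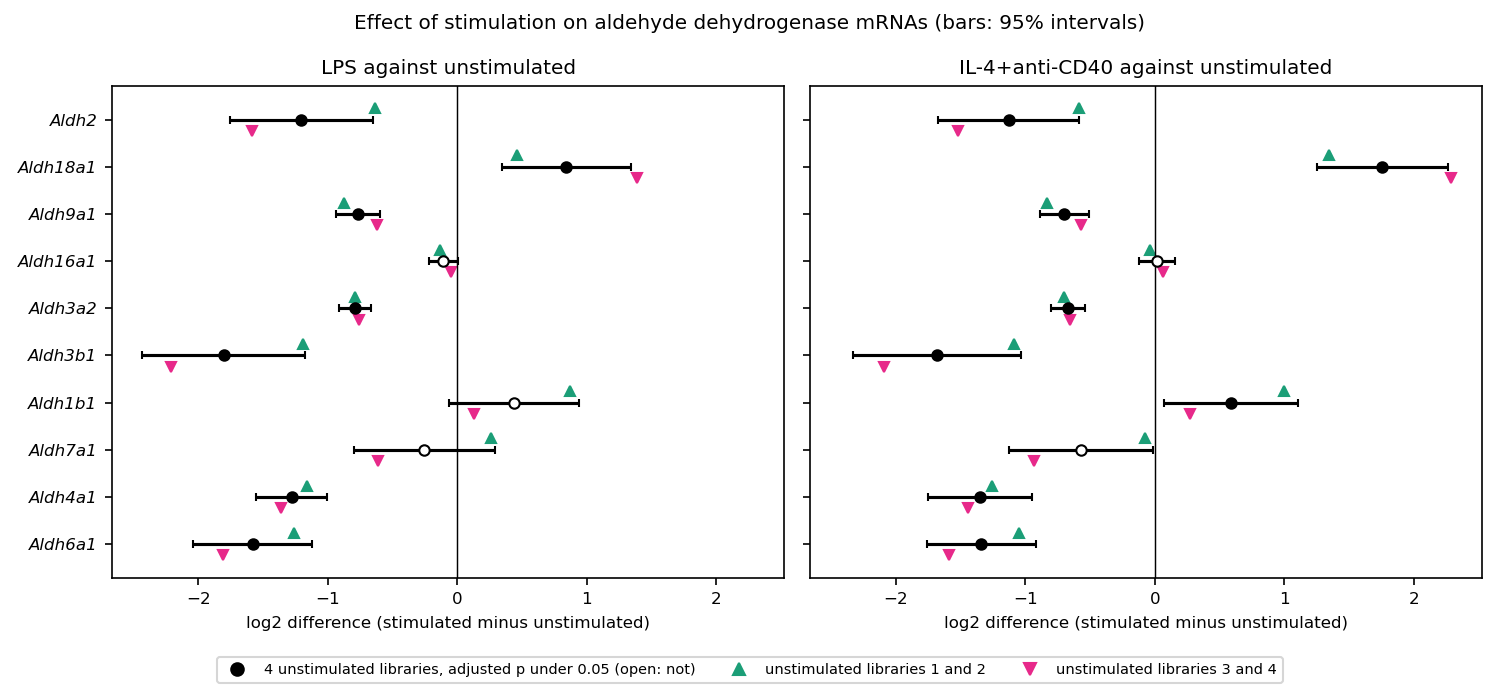
Log2 difference between stimulated and unstimulated cells (horizontal axis) for each aldehyde dehydrogenase (vertical axis), under LPS on the left and IL-4+anti-CD40 on the right; circles with 95% intervals use all 4 unstimulated libraries and triangles each pair alone. Aldh18a1 lies right of 0 and Aldh2, Aldh3a2, Aldh3b1, Aldh4a1, Aldh6a1 and Aldh9a1 left of it with either pair, whereas Aldh7a1 under LPS lies at 0.26 or −0.61 depending on the pair.

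The stimuli differed in 2 members. Aldh18a1 was 1.81-fold lower under LPS than under IL-4+anti-CD40 (log2 −0.86, SE 0.054, adjusted p = 1.44e-07, edgeR), and Aldh7a1 was higher, at 1.33, 1.18, 1.35 and 1.23 against 0.940, 1.01, 1.12 and 0.995 FPKM (log2 0.37, SE 0.11, adjusted p = 0.0157, edgeR), with no overlap in either. Among all genes 22.3% were higher and 17.3% lower under LPS. Scaling by total counts turned this split from 1 higher and 1 lower into 0 higher and 4 lower, with Aldh7a1 at 0.24 (adjusted p = 0.0898, edgeR).

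The main question was what DSF did to mRNAs of the family it inhibits. Its effects were mixed in direction. Under LPS, DSF raised 1 member, Aldh2, and lowered 4, namely Aldh1b1, Aldh3a2, Aldh4a1 and Aldh9a1, where 35.1% of all tested genes rose and 36.0% fell. Under IL-4+anti-CD40 it raised Aldh2 and Aldh3b1 and lowered Aldh1b1, Aldh4a1, Aldh9a1 and Aldh18a1, where 30.1% of genes rose and 31.6% fell. The member counts of 5 and 6 of 10 thus stood beside backgrounds in which most genes were called. Median log2 differences of the members were −0.03 under LPS and −0.16 under IL-4+anti-CD40, against 0.00 and −0.02 for all genes. Scaling by total counts in place of TMM moved the median of all genes to −0.21 and −0.16, and the split of the members to 0 higher and 6 lower and to 1 higher and 5 lower.

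Aldh2, the classical target, stood at 23.96, 21.7, 23.2 and 23.6 FPKM under LPS and at 24.5, 26.4, 26.2 and 27.9 FPKM under LPS and DSF. Under IL-4+anti-CD40 it went from 23.97, 24.9, 22.8 and 25.1 FPKM to 27.8, 27.9, 27.6 and 26.95 FPKM. The DSF libraries lay above the vehicle libraries under both stimuli, without overlap. The library sizes implied by the FPKM were close to the TMM ones, so this separation rests on the same scaling as the fold that follows. The rise was 1.15-fold (log2 0.20, SE 0.045, adjusted p = 0.000312, edgeR) and 1.12-fold (log2 0.17, SE 0.047, adjusted p = 0.00945, edgeR). It depended on the scaling, since total counts gave −0.01 (adjusted p = 0.888) and 0.02 (adjusted p = 0.747, edgeR). In 1 fit over all 20 libraries the values were 0.18 and 0.23 and the calls were lost (adjusted p = 0.359 and 0.261, edgeR).

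Aldh1b1 moved the other way. Its levels of 3.60, 3.66, 4.11 and 3.86 FPKM under LPS compared with 2.77, 1.70, 2.50 and 2.60 FPKM when DSF was added, and those of 4.46, 4.25, 4.51 and 3.58 FPKM under IL-4+anti-CD40 compared with 2.79, 2.57, 2.89 and 2.04 FPKM. All DSF libraries were below all vehicle libraries. The fall was 1.57-fold under LPS (log2 −0.65, SE 0.13, adjusted p = 0.000109, edgeR) and 1.66-fold under IL-4+anti-CD40 (log2 −0.73, SE 0.13, adjusted p = 0.000546, edgeR). It held under every alternative tried, total counts included, at −0.86 and −0.88.

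Among the fatty aldehyde enzymes, Aldh3a2 went from 6.26, 5.83, 6.40 and 5.68 FPKM to 5.20, 4.94, 4.81 and 4.99 FPKM when DSF was added to LPS. The ranges were separate and the fall was 1.20-fold (log2 −0.26, SE 0.063, adjusted p = 0.000697, edgeR). Under IL-4+anti-CD40 the ranges overlapped and the difference was −0.10 (SE 0.059, adjusted p = 0.169, edgeR), though it passed under total counts, at −0.25 (adjusted p = 0.00417, edgeR). Aldh3b1 had the reverse pattern of calls, at 3.17, 3.27, 4.07 and 4.51 FPKM under LPS and DSF, log2 0.11 from LPS alone (SE 0.13, adjusted p = 0.475), and at 4.70, 5.59, 6.22 and 5.63 FPKM under IL-4+anti-CD40 and DSF, a 1.42-fold rise (log2 0.51, SE 0.14, adjusted p = 0.00701, edgeR) with no overlap. Between the stimuli neither effect differed at the threshold (adjusted p = 0.169 for Aldh3a2 and 0.157 for Aldh3b1, edgeR).

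For proline synthesis, Aldh18a1 stood at 22.2, 23.9, 23.3 and 23.1 FPKM under LPS and DSF, which overlapped LPS alone, and at 33.8, 33.8, 34.4 and 36.7 FPKM under IL-4+anti-CD40 and DSF, which lay below all IL-4+anti-CD40 libraries. The log2 difference was −0.06 under LPS (95% interval −0.16 to 0.03, adjusted p = 0.213, edgeR) and −0.43 under IL-4+anti-CD40 (SE 0.052, adjusted p = 3.13e-05, edgeR), a 1.34-fold fall. Under LPS it passed without LPS library 3, at −0.12 (adjusted p = 0.0290), and under total counts, at −0.27 (adjusted p = 8.74e-06, edgeR). For proline breakdown, Aldh4a1 measured 0.587, 0.420, 0.296 and 0.537 FPKM under LPS and DSF, below all LPS libraries, a 1.77-fold fall (log2 −0.82, SE 0.19, adjusted p = 0.000446, edgeR). Under IL-4+anti-CD40 and DSF it read 0.598, 0.566, 0.631 and 0.450 FPKM, which overlapped the vehicle libraries, at log2 −0.50 (SE 0.18, adjusted p = 0.0287, edgeR). That call ended without IL-4+anti-CD40 library 2 (adjusted p = 0.0946) or 3 (0.0782), without DSF library 2 (0.0557) or 4 (0.0859), and in DESeq2 (0.0518).

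Aldh9a1 fell from 11.6, 11.9, 12.4 and 12.7 FPKM to 8.46, 10.5, 9.65 and 8.79 FPKM under LPS, with no overlap (1.28-fold, log2 −0.36, SE 0.066, adjusted p = 2.95e-05, edgeR). Under IL-4+anti-CD40 and DSF the libraries read 12.1, 11.3, 10.3 and 10.4 FPKM and overlapped the vehicle libraries, at log2 −0.22 (SE 0.068, adjusted p = 0.0172, edgeR). This smaller difference did not pass without IL-4+anti-CD40 library 2 (adjusted p = 0.0627), without DSF library 4 (0.0591), or in 1 fit over 20 libraries (0.102). The enzymes of valine and lysine breakdown and Aldh16a1 did not pass under either stimulus. Under total counts, however, Aldh16a1 passed in LPS, at −0.21 (adjusted p = 0.000497, edgeR). Aldh6a1 gave 0.15 under LPS (95% interval −0.20 to 0.50) and −0.22 under IL-4+anti-CD40 (−0.56 to 0.13), Aldh7a1 gave 0.23 (−0.02 to 0.48) and 0.22 (−0.05 to 0.49), and Aldh16a1 gave 0.00 (−0.10 to 0.10) and 0.03 (−0.08 to 0.14), all as log2 differences.

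**Figure D3:**
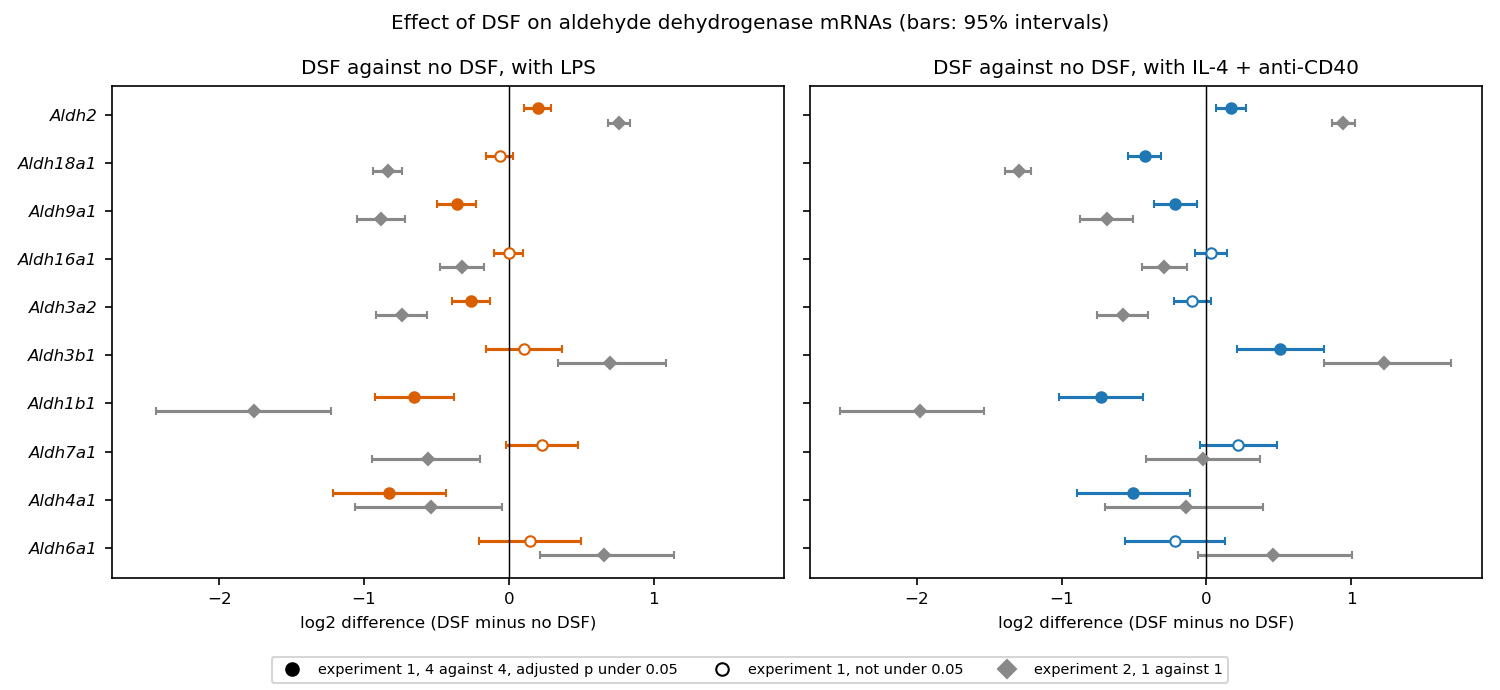
Log2 difference between cells with and without DSF (horizontal axis) for each aldehyde dehydrogenase (vertical axis), under LPS on the left and IL-4+anti-CD40 on the right; circles are experiment 1 with 95% intervals over 4 against 4 libraries, filled where the adjusted p was under 0.05, and diamonds are experiment 2, 1 against 1, with intervals for counting error only. Aldh2 lies right of 0 in all 4 cases under TMM scaling (at −0.01 under LPS in experiment 1 under total counts), and Aldh1b1 left of 0 in all 4, at −0.65 and −0.73 in experiment 1 and −1.76 and −1.98 in experiment 2.

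Marker lists of B cells and of other cells moved with DSF as well. The summed myeloid markers were 77.3 to 80.6 FPKM under LPS and DSF (71.4 to 81.8 under LPS) and 114 to 159 FPKM under IL-4+anti-CD40 and DSF (94.2 to 113 with vehicle), 3 of 6 rising under each stimulus and 1 and 0 falling. B cell markers went down, with 8 and 6 of 10 falling, 1 and 3 rising, and sums of 1493 to 1585 against 1901 to 1941 FPKM under LPS and 1881 to 1937 against 2400 to 2986 FPKM under IL-4+anti-CD40. T cell markers were lower, at 7.97 to 8.90 against 10.7 to 11.7 FPKM under LPS and 6.17 to 6.504 against 7.44 to 8.67 FPKM under IL-4+anti-CD40. Neutrophil markers were higher in sum, at 20.2 to 22.9 against 16.3 to 18.3 FPKM and 20.9 to 25.5 against 14.9 to 19.6 FPKM. Of the 4 tested, 2 rose and 1 fell under LPS, and 1 rose and 0 fell under IL-4+anti-CD40. Plasma cell markers were higher in sum too, at 109 to 122 against 81.0 to 86.4 FPKM under LPS, where 3 of 4 rose and 1 fell, and 137 to 145 against 119 to 125 FPKM under IL-4+anti-CD40, where 2 rose and 0 fell. Dendritic cell markers were at 10.6 to 11.4 against 8.15 to 8.69 FPKM under LPS, though 1 of 5 rose and 3 fell. Under IL-4+anti-CD40 0 rose and 1 fell of the 4 tested. Among all tested genes, 35.1% rose and 36.0% fell with DSF under LPS, and 30.1% and 31.6% under IL-4+anti-CD40. The part of these lists in the members' differences was not tested.

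A test of the difference between both DSF effects asked whether the effect of the drug depended on the stimulus. It called 1 member, Aldh18a1, whose effect was 0.36 higher (less negative) under LPS than under IL-4+anti-CD40 on the log2 scale (SE 0.073, adjusted p = 0.00204, edgeR), and none in the other direction, where 7.92% of all genes were higher and 6.96% lower. At an unadjusted p under 0.05 the counts were 1 higher and 2 lower, and DESeq2 also called 1 and 0. Leaving out any library kept the Aldh18a1 call, at 0.32 to 0.39, but 1 fit over all 20 libraries gave 0.29 with adjusted p = 0.497. Aldh1b1 differed by 0.07 (95% interval −0.33 to 0.47) and Aldh2 by 0.03 (−0.12 to 0.17).

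Cells given both a stimulus and DSF were also set against unstimulated cells, a comparison that shares its libraries with those above. Under LPS and DSF, 7 members were lower and 1 higher, beside 37.3% and 34.3% of genes, and under IL-4+anti-CD40 and DSF 6 were lower and 1 higher, beside 35.3% and 33.4%. Aldh4a1 had the largest difference under both, 4.38-fold lower under LPS and DSF (log2 −2.13, SE 0.21) and 3.59-fold lower under IL-4+anti-CD40 and DSF (−1.84, SE 0.15). Aldh18a1 was the member that stood higher, at 1.68-fold (log2 0.75) and 2.53-fold (1.34), and under total counts its LPS and DSF value was 0.33 (adjusted p = 0.222, edgeR). Its log2 values were 0.33 and 0.92 against unstimulated libraries 1 and 2 alone and 1.27 and 1.86 against libraries 3 and 4 alone. Aldh1b1 passed in neither comparison but was lower against libraries 3 and 4 alone, at −0.58 (adjusted p = 0.00313) and −0.46 (adjusted p = 0.0187, edgeR). The seventh lower member under LPS and DSF, Aldh16a1 at −0.14 (adjusted p = 0.0465), did not pass without any 1 of the 4 DSF libraries or unstimulated library 1 (adjusted p 0.0554 to 0.137, edgeR). Aldh7a1 under LPS and DSF was at −0.05, or 0.42 against unstimulated libraries 1 and 2 and −0.44 against 3 and 4, and under IL-4+anti-CD40 and DSF it was at −0.34, or 0.14 and −0.72 (adjusted p = 0.000319, edgeR).

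Because Aldh2 fell and Aldh18a1 rose on stimulation, the makeup of the family's mRNA changed. The summed level of the 10 members was 129 ± 19.1 FPKM (SD, n = 4) in unstimulated cells, 84.7 ± 2.15 under LPS, 81.2 ± 2.61 under LPS and DSF, 109 ± 3.78 under IL-4+anti-CD40 and 99.9 ± 0.368 under IL-4+anti-CD40 and DSF. Aldh2 made up 31.7% to 48.8% of the sum in unstimulated libraries, 26.4% to 27.6% under LPS and 21.2% to 23.7% under IL-4+anti-CD40. With DSF its share was 31.7% to 33.4% and 26.9% to 28.1%, above the vehicle libraries under both stimuli. The Aldh18a1 share was 6.46% to 16.6% in unstimulated libraries and reached 41.1% to 43.5% under IL-4+anti-CD40, against 33.9% to 36.6% when DSF was added. Aldh2 was 4.71 ± 3.11 times Aldh18a1 (SD, n = 4) in unstimulated cells, 0.945 ± 0.0495 times under LPS and 0.528 ± 0.0345 times under IL-4+anti-CD40. These ratios within a library do not depend on its scaling, and no test was run on them.

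**Figure D4:**
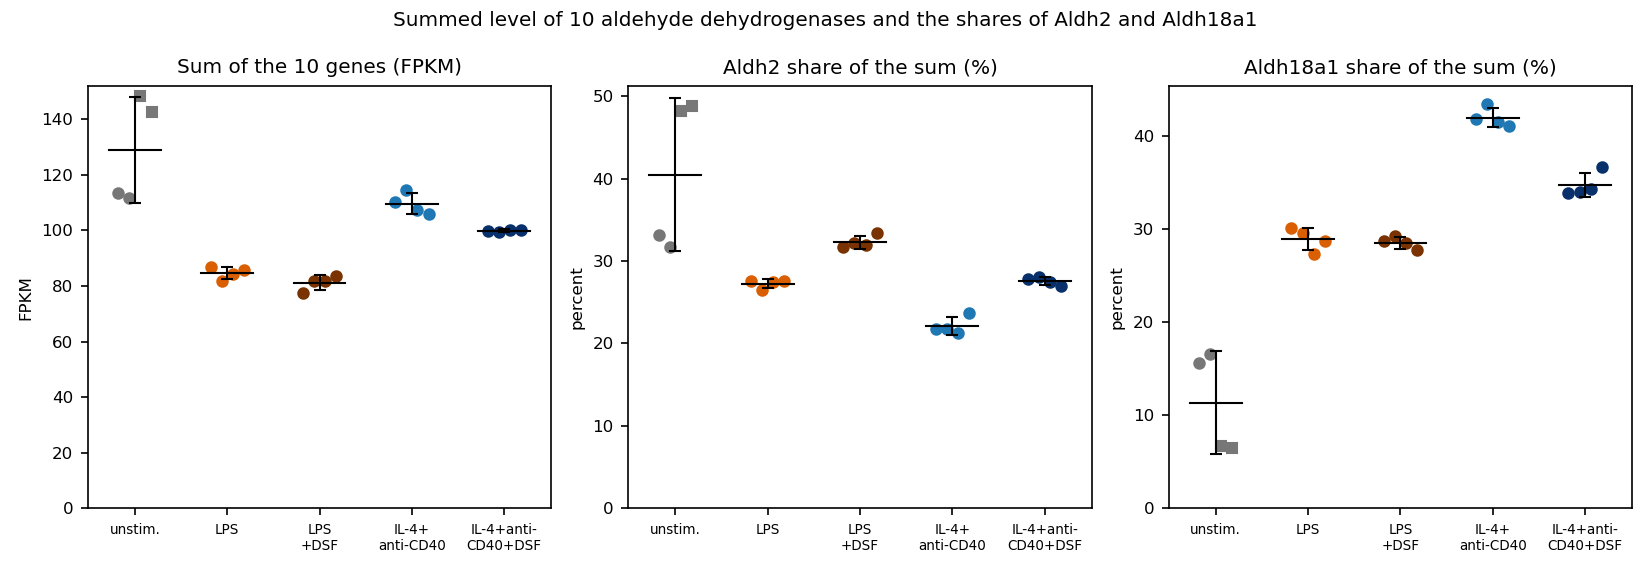
Summed FPKM of the 10 aldehyde dehydrogenases (left) and the percent of that sum from Aldh2 (middle) and Aldh18a1 (right), all axes from 0, in each library of experiment 1 by group, with bars for the mean ± SD of 4 and squares for unstimulated libraries 3 and 4. The Aldh2 share is highest in unstimulated cells, at 31.7% to 48.8%, though libraries 1 and 2 meet the range of LPS with DSF, and the Aldh18a1 share is highest under IL-4+anti-CD40, at 41.1% to 43.5%.

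Experiment 2 gave 1 library a condition, so its values are descriptions with no test, and its FPKM were scaled apart from those of experiment 1. Its libraries held more erythroid marker RNA (5 markers, 30.1 to 87.5 FPKM against 1.41 to 17.1 in experiment 1) and less myeloid marker RNA (15.3 to 34.0 FPKM). Of the 5 members called under DSF under LPS in experiment 1, all 5 had the same sign in experiment 2, as had all 6 called under IL-4+anti-CD40. Over all 10 members, called or not, 9 and 7 kept their sign. The stimuli gave the same sign for 7 of 7 called members under LPS and 8 of 8 under IL-4+anti-CD40. The share of all called genes that kept their sign was not computed, so these counts have no background beside them.

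The members called under DSF in experiment 1 had larger differences in experiment 2, except Aldh4a1, at −0.53 (95% counting interval −1.06 to −0.05) under LPS and −0.14 (−0.70 to 0.39) under IL-4+anti-CD40. Aldh2 was at 25.2 FPKM under LPS and 42.6 FPKM with DSF added, a log2 difference of 0.76 (95% counting interval 0.69 to 0.83), and at 24.1 and 46.2 FPKM under IL-4+anti-CD40, a difference of 0.95 (0.87 to 1.02). Aldh1b1 was at 2.76 and 0.782 FPKM under LPS, from 117 and 31 counts (log2 −1.76, −2.43 to −1.23), and at 5.21 and 1.28 FPKM under IL-4+anti-CD40, from 221 and 42 counts (−1.98, −2.53 to −1.54). Aldh18a1 was lower with DSF under both stimuli here, from 31.6 to 17.6 FPKM under LPS (−0.84, −0.94 to −0.74) and from 56.1 to 22.6 FPKM under IL-4+anti-CD40 (−1.30, −1.39 to −1.21). Aldh9a1 read −0.88 and −0.69, Aldh3a2 −0.74 and −0.58, and Aldh3b1 0.70 and 1.23 on the same scale. These intervals cover counting error only. At least 2-fold differences were seen for 1 of 10 members under LPS and 3 of 10 under IL-4+anti-CD40, beside 39.8% and 42.2% of genes, and under total counts for 4 under LPS.

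Ibrutinib gave no member a 2-fold difference under either stimulus, beside 5.28% of genes under LPS and 3.92% under IL-4+anti-CD40. The 10 log2 differences ran from −0.35 for Aldh3b1 to 0.58 for Aldh4a1 under LPS and from −0.14 for Aldh2 to 0.67 for Aldh4a1 under IL-4+anti-CD40. Aldh1b1, at −1.76 and −1.98 with DSF, was at −0.30 (95% counting interval −0.68 to 0.07) and 0.29 (0.05 to 0.54) with ibrutinib, whose dose the labels do not give unambiguously. Aldh2 was at −0.07 and −0.14. In this experiment the stimuli alone gave at least 2-fold differences for 2 members under LPS and 4 under IL-4+anti-CD40, beside 18.5% and 24.4% of genes.

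Among the 11 family genes outside the list, 9 had at most 13 counts in any library of experiment 1, or, for Aldh1a1, 71 and 87 counts in unstimulated libraries 3 and 4 and at most 7 elsewhere. Aldh1a2, which makes retinoic acid from retinal, and Aldh1l2 were the others. Aldh1a2 had 2, 6, 3 and 7 counts in unstimulated libraries, 3, 2, 9 and 7 under LPS, and 39, 42, 36 and 29 under LPS and DSF. Under IL-4+anti-CD40 it had 36, 22, 20 and 36 counts and with DSF added 40, 41, 30 and 71. DSF raised it 8.20-fold under LPS, without overlap (log2 3.04, SE 0.37, adjusted p = 6.49e-08, edgeR), and gave 0.64 under IL-4+anti-CD40 (SE 0.31, adjusted p = 0.0924, edgeR). With at most 9 counts under LPS, it passed the filter on low counts in the LPS comparison only through the DSF libraries. Its fold and p-value there are thus no support beyond the counts themselves. The difference between the DSF effects under LPS and IL-4+anti-CD40 was 2.39 (SE 0.53, adjusted p = 0.00387, edgeR). In experiment 2 it had 7 counts under LPS and 51 with DSF, 11 under IL-4+anti-CD40 and 41 with DSF, and 6 and 32 with ibrutinib. Aldh1l2, a mitochondrial folate enzyme with 5 to 34 counts, fell with DSF under IL-4+anti-CD40 (log2 −0.90, SE 0.27, adjusted p = 0.0122, edgeR) and was at −0.58 under LPS (adjusted p = 0.129, edgeR).

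Neighbouring pathways were read from 7 lists, whose counts are to be read against the shares of all genes, 35.1% rising and 36.0% falling with DSF under LPS and 30.1% and 31.6% under IL-4+anti-CD40. Genes of branched-chain amino acid breakdown, the pathway of Aldh6a1, went down with DSF in number, 16 of 21 falling and 1 rising under LPS and 14 falling and 1 rising under IL-4+anti-CD40, with medians of −0.69 and −0.57 on the log2 scale against 0.00 and −0.02 for all genes. Dbt, the core of the branched-chain ketoacid dehydrogenase, fell by 1.41 (SE 0.089, adjusted p = 3.44e-13, edgeR) and by 1.42 (SE 0.115, adjusted p = 2.28e-06, edgeR), and Bckdk, the kinase that restrains that complex, by 1.12 and 1.04. Echs1, an enoyl-CoA hydratase, decreased by 1.39 and by 0.97. Aldh6a1 itself did not pass. In experiment 2, 16 of 21 genes of the list were lower with DSF under each stimulus, with medians of −0.76 and −0.78.

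In the proline and glutamate list 7 of 11 tested genes fell and 3 rose under LPS, and 8 fell and 2 rose under IL-4+anti-CD40 (medians −0.33 and −0.24). Prodh, the first enzyme of proline breakdown, fell by 0.86 under IL-4+anti-CD40 (SE 0.20). Got2, the mitochondrial aspartate aminotransferase, fell by 0.61 under LPS (SE 0.054) and by 0.52 under IL-4+anti-CD40 (SE 0.074). On stimulation alone, Pycr1 rose with Aldh18a1, by 1.04 under LPS (SE 0.38, adjusted p = 0.0410, edgeR) and 2.48 under IL-4+anti-CD40 (SE 0.38, adjusted p = 0.000463, edgeR), and 5 of 11 tested genes of the list rose under each stimulus, with 1 and 3 falling.

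Of the alcohol and aldehyde list, which holds enzymes that make or reduce the same substrates, 4 of 11 tested genes rose and 4 fell with DSF in LPS and 6 rose and 3 fell in IL-4+anti-CD40 (medians 0.09 and 0.53), and the LPS counts are near the shares over all genes. Cbr3, a carbonyl reductase, rose 7.02-fold and 3.23-fold, Cat, the catalase that can also oxidise ethanol, 2.74-fold and 3.03-fold, and Esd, the hydrolase that completes formaldehyde removal, 2.55-fold and 2.24-fold. Adh5, which begins that removal, fell 1.58-fold under IL-4+anti-CD40. Cat was among the genes lowered by stimulation, by 2.29 under LPS and by 2.26 under IL-4+anti-CD40 on the log2 scale, so that its change with DSF ran against that of the stimulus.

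The fatty aldehyde and sphingosine-1-phosphate list around Aldh3a2 had 4 of 11 tested genes higher and 4 lower under LPS, near the 35.1% and 36.0% of all genes, and 3 higher and 1 lower under IL-4+anti-CD40 (medians 0.07 and −0.07). Sphk1, the kinase that makes sphingosine-1-phosphate, rose 14.5-fold (SE 0.23 on the log2 scale) and 2.92-fold (SE 0.38). The larger fold, under LPS, started from a low mean of 0.546 CPM and reached 8.08 CPM. Under IL-4+anti-CD40 the mean of Sphk1 went from 5.56 to 16.8 CPM. Sgpl1, the lyase that releases the fatty aldehyde from sphingosine-1-phosphate, rose 3.21-fold and 2.51-fold. Sgpp1, a phosphatase of the same lipid, fell 2.93-fold and 2.57-fold. In the amine, GABA and carnitine list of Aldh9a1, 2 of 7 tested genes rose and 3 fell under LPS and 2 rose and 2 fell under IL-4+anti-CD40, where Sat1, the spermidine acetyltransferase, rose 2.24-fold and 2.19-fold and Smox, the spermine oxidase, 1.79-fold and 2.09-fold. In the same amine list, Maoa fell by 0.87 and Paox by 0.79 on the log2 scale under LPS, and Odc1 fell by 0.28 under IL-4+anti-CD40. Of the lysine list of Aldh7a1, 2 of 8 genes could be tested. Gcdh, the glutaryl-CoA dehydrogenase, fell by 0.54 and by 0.65. The other gene, Dlst, rose by 0.15 under LPS (SE 0.039, adjusted p = 0.00116, edgeR) and did not pass under IL-4+anti-CD40.

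**Figure D5:**
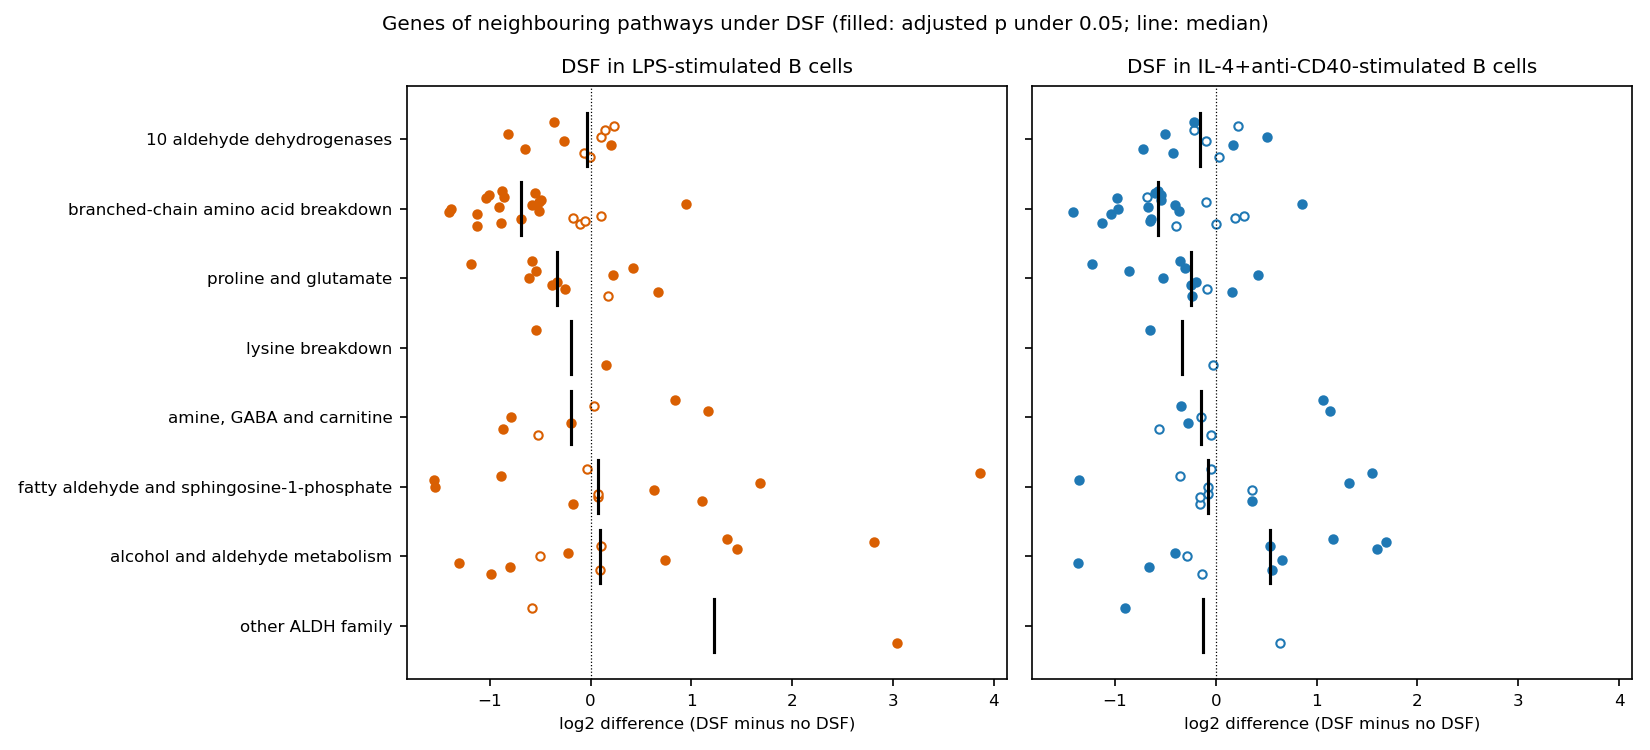
Log2 difference between cells with and without DSF (horizontal axis) for each tested gene of the 10 aldehyde dehydrogenases and 7 lists of neighbouring genes (rows), under LPS on the left and IL-4+anti-CD40 on the right; points are genes, filled where the adjusted p was under 0.05, and lines are list medians. Branched-chain amino acid breakdown has the lowest median with each stimulus, at −0.69 and −0.57, and the aldehyde dehydrogenases lie between −0.82 and 0.51.

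Patterns over the 20 libraries of experiment 1 were compared by Pearson's r on log2 scaled counts (TMM) with the 14425 genes that could be compared, as a description, since libraries share groups. Most like Aldh2 were Tsc22d3 (0.991), Pold4 (0.985) and Txndc5 (0.978). Nearest to Aldh18a1 were Stard4 (0.990), Marcks (0.983) and Arap2 (0.979), and to Aldh9a1 Eif4ebp2 (0.982), Glg1 (0.973) and Abhd12 (0.973). Within the family the highest values were 0.952 between Aldh3a2 and Aldh9a1 and 0.950 between Aldh2 and Aldh3b1, and the lowest was −0.819 between Aldh2 and Aldh18a1. Aldh2 and Aldh3b1 both differed between the unstimulated pairs.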

How the data were processed

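RNA-seq of mouse splenic B cells was analysed from 2 tables, experiment 1 with 20 libraries and experiment 2 with 7. The authors trimmed reads with Fastp, aligned them to mm10 with HISAT2 v2.0.5 and deposited counts per gene from featureCounts v1.5.0-p3. The authors also deposited FPKM, whose implied library sizes were 0.972 to 1.03 of the TMM sizes and 0.869 to 1.18 of the total counts in experiment 1. The annotation release and strand setting were not given in the sources used here. Counts were tested with edgeR 4.0.16 (R 4.3.3) by the quasi-likelihood test with TMM scaling and filterByExpr, in fits of the groups compared, and p-values were adjusted over all genes by the Benjamini-Hochberg method at 0.05. DESeq2 1.42.0, total-count scaling, other filters, 1 fit over all libraries, a replicate block and leaving out each library were the alternatives. Comparisons with 1 pair of unstimulated libraries were added after seeing the data. Experiment 2 has no test: log2 ratios used TMM and a prior count of 2, with exact 95% binomial intervals for counting error. On simulated counts for DSF in LPS, 200 of 200 genes changed 2-fold were called, with 6 false calls among 14167 genes. For the difference of the DSF effects it was 190 of 200, with 12 false calls among 14826 genes. The simulation used 1 fixed spread and changed well-counted genes only, so it does not show how smaller changes or low counts fare. Replicates differed by more than sampling noise (chi-square per gene 2.78 to 86.0 over 30 pairs). Replicate numbers were not used for pairing, since 28 correlations of same-numbered deviations ran from −0.056 to 0.169. Genes of the lists were named by the rule of at most 4 per list and comparison, with the largest differences among those past the threshold and without overlap, and for each of the 3 members with the highest level the 3 genes of highest correlation. The members, lists and this rule were chosen with earlier results of these data known. Some genes that this rule names are not reported here.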

Additional observations from a re-analysis of the deposited data

Results flagged for a closer look

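Of the differences between the effect of DSF under LPS and under IL-4+anti-CD40, Aldh18a1 was flagged because the test of the difference itself passed, at 0.36 on the log2 scale (edgeR's quasi-likelihood test, adjusted p = 0.00204). Its effect was −0.06 under LPS and −0.43 under IL-4+anti-CD40, and in experiment 2, without a test, −0.84 and −1.30. Aldh1a2, outside the list of 10, was flagged by the same test at 2.39 (adjusted p = 0.00387, edgeR), with effects of 3.04 and 0.64 from counts of at most 71. Its counts under LPS were at most 9, so the effect of 3.04 started from a level below the filter on low counts. No library stood out by Dixon's criterion in any of the 50 groups of 4 values examined, where chance alone flags about 5%. That criterion looks for a single outlying value and cannot flag the split of the unstimulated libraries into pairs.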

How the results depend on the processing

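Most values kept their side of the threshold or, in experiment 2, stayed within their counting interval. A sign that turned without a call in either fit was counted as kept, as for Aldh7a1 under LPS against unstimulated libraries 1 and 2 (0.26). Of the single-member values under alternatives, 1450 were kept, 36 lost and 26 gained a call, and 25 untested values of experiment 2 left their interval. A further 3 turned sign with a call in 1 of the fits. Those 3 were Aldh2 for DSF in LPS under total counts (−0.0074), Aldh7a1 for LPS with DSF against unstimulated libraries 1 and 2 (0.42) and Aldh16a1 for IL-4+anti-CD40 with DSF against unstimulated cells under total counts (−0.25). Total counts also gave, as higher and lower members, 0 and 6 for DSF in LPS, 1 and 5 for DSF in IL-4+anti-CD40, 0 and 4 for LPS against IL-4+anti-CD40, 0 and 8 for LPS with DSF against unstimulated cells, 1 and 7 for IL-4+anti-CD40 against unstimulated cells, and 4 members past 2-fold for DSF in LPS in experiment 2. Their medians over all genes were −0.27, −0.19, −0.21, −0.16, −0.43, −0.31 and −0.14 for LPS, IL-4+anti-CD40, DSF in each stimulus, each stimulus with DSF, and LPS against IL-4+anti-CD40. In 1 fit over 20 libraries the higher members numbered 2 for LPS, 0 for DSF in LPS, 1 for DSF in IL-4+anti-CD40, 0 for LPS against IL-4+anti-CD40 and 0 for the difference of the DSF effects. Without a minimum count they numbered 1 for IL-4+anti-CD40 and 1 for DSF in IL-4+anti-CD40. Unstimulated libraries 1 and 2 alone gave 2 higher for LPS and 2 for LPS with DSF, and libraries 3 and 4 alone gave 1 for IL-4+anti-CD40. Leaving out 1 library at a time gave 1 to 2 higher and 6 lower for LPS, 1 to 2 higher and 6 to 7 lower for IL-4+anti-CD40, 1 higher and 4 to 5 lower for DSF in LPS, 2 higher and 2 to 4 lower for DSF in IL-4+anti-CD40, and 6 to 7 lower for LPS with DSF. The causes were not tested. With a replicate block, which the labels do not support as a pairing, IL-4+anti-CD40 raised 1 member in place of 2, and in 5 of 28 comparisons a library correlated best with its own number. Low counts limit Aldh4a1, Aldh6a1, Aldh7a1 and Aldh1b1 in experiment 2, where intervals cover counting error only.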
